A study of Homo sapiens with 6 samples.

Results

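Core autophagy machinery here means 44 human genes, chosen by symbol as the enzymes, scaffolds, membrane proteins and cargo receptors that build an autophagosome, out of 19240 genes in the deposited count table. They were grouped by step into the ULK complex, the PI3K complex, the WIPI, ATG2 and ATG9 proteins, the conjugation enzymes, the ATG8 family, the cargo receptors, and the proteins of membrane supply and fusion. Their transcripts were compared between A549 cells kept 48 h without glucose (3 libraries) and A549 cells kept 48 h with 25 mM glucose (3 libraries); A549 is a widely used line derived from a human lung carcinoma. Each library was read from transcript 3' ends, primed with barcoded oligo-dT. The labels give no other treatment or genetic change, and they leave unsaid whether libraries within a group are separate cultures. The p-values therefore rest on the differences seen among these 6 libraries, and those may be technical.

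Autophagy encloses cytoplasm in a double membrane and delivers it to lysosomes, where it is broken down and its building blocks are returned to the cell. The ULK kinase complex starts the process when nutrients or energy run low, and a lipid kinase complex around PIK3C3 then marks the forming membrane with a phosphoinositide. WIPI proteins bind that lipid, ATG2 proteins bring in more lipid, and a pair of ubiquitin-like conjugation systems attaches ATG8 proteins to the membrane. Receptors that bind both ATG8 and cargo select what is enclosed, and SNARE proteins such as STX17 fuse the closed autophagosome with the lysosome.

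Without glucose, transcripts of 12 members rose and that of 1 fell, while 31 did not pass; 29.5% of the members passed, against 22.3% of all genes tested. WIPI1, a phosphoinositide-binding protein of the forming membrane, rose 6.18-fold. The ATG8 genes MAP1LC3B and GABARAPL1 rose 2.76-fold and 2.87-fold, and the cargo receptor genes OPTN, TAX1BP1, SQSTM1 and RETREG1 rose 1.92-fold to 2.85-fold. The member that fell was ATG4B, which encodes the main protease that trims ATG8 proteins. Of the members 27.3% rose and 2.27% fell, against 11.6% and 10.7% of all 11886 genes tested. Over all genes the balance turned with the scaling. Here 1376 rose and 1276 fell, against 1312 and 1332 with edgeR's relative log expression (RLE) scaling and 1207 and 1465 with library totals. Under each scaling 12 members rose and 1 fell. The test was edgeR's quasi-likelihood test with Benjamini-Hochberg adjustment over all tested genes, with a threshold of 0.05 for the adjusted p. The median log2 fold change, without over with glucose, was 0.46 over the 44 members and 0.02 over all genes tested. Levels are CPM, counts scaled to a common library total, so a change is relative to the other transcripts of a library, and fewer cells of a kind cannot be told apart from less RNA per cell.

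Among the members, 35 had a log2 fold change above 0 and 9 below it; over all genes, 51.5% were above 0. For 19 members no library without glucose was as low as any with glucose; these are 43.2%, against 21.0% of all genes. The reverse held for 1 member, or 2.27%, against 19.4% of all genes. The summed level of the 44 members was 6399 to 6953 CPM without glucose and 3678 to 4141 CPM with glucose. Much of it was SQSTM1, at 2146 to 2701 CPM without glucose and 1018 to 1488 CPM with glucose. The 31 members that did not pass summed to 2065 to 2157 CPM without glucose and 1675 to 1835 CPM with glucose. All 44 members passed the filter on low counts, with 426 (ATG4A) to 134131 (SQSTM1) counts over the 6 libraries.

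**Figure D1:**
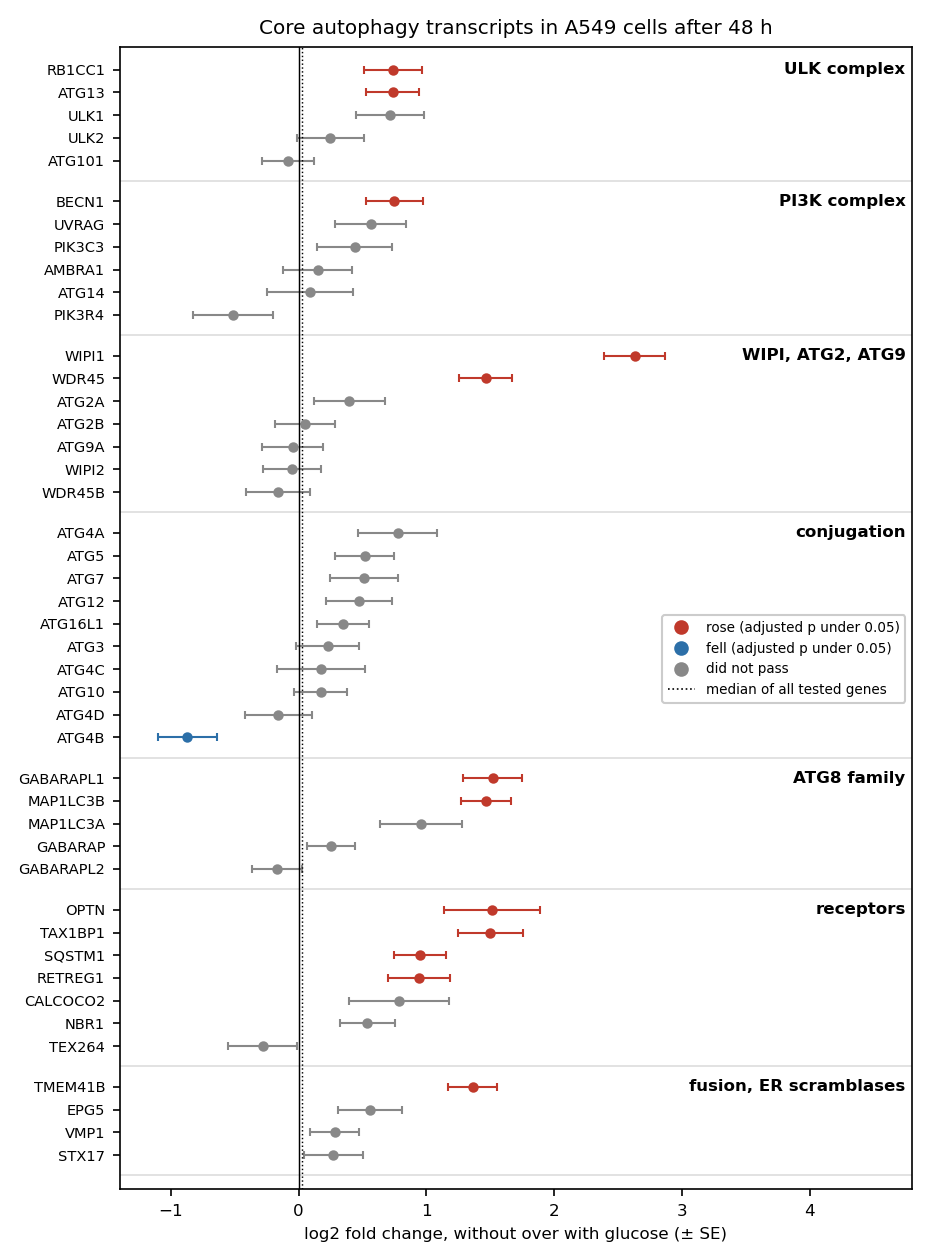
Log2 fold change, without over with glucose, for the 44 members grouped by step, with bars for the SE and a dotted line at the median of all tested genes. Red points rose, blue fell and grey did not pass; WIPI1 lies farthest to the right at 2.63 and ATG4B farthest to the left at −0.87.

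The libraries held 11086416 to 14060313 gene counts without glucose and 6701004 to 14259943 with glucose. The groups separated along the first principal component (57.4% of the variance). On the second (17.6%), scores were 19.3, −20.2 and −4.25 for replicates 1, 2 and 3 without glucose and −38.6, 23.9 and 19.9 with glucose, where replicate 1, the shallowest library, stood apart. With that library left out 11 members rose and 1 fell. Among the markers of the line, the keratin genes KRT8 and KRT18 and the enzyme gene AKR1B10 fell without glucose, with log2 fold changes of −1.18, −0.90 and −0.92 (edgeR adjusted p = 0.00150, 0.00473 and 0.00391). Their lowest level without glucose was 752, 722 and 977 CPM. ALDH1A1 (log2 fold change 0.20) and AKR1C1 (−0.32) did not pass. Neither did EPCAM, at 2.56 to 4.05 CPM without glucose and 2.54 to 5.63 CPM with glucose. The epithelial genes KRT19 (−0.49) and CDH1 (0.42) did not pass either. In every library without glucose KRT19 was lower, and CDH1 higher, than in any with glucose. The part of these changes in the members' results was not tested. The T cell gene CD3E had no count in any library. Endothelial genes summed to 0.190 to 0.306 CPM without glucose and 0.211 to 0.847 CPM with glucose, with VWF at 0. Among the fibroblast genes DCN was at 0 and the sum was 4.51 to 5.89 CPM without glucose and 13.0 to 14.7 CPM with glucose, mostly from COL1A1. Of 15 immediate-early and heat-shock genes that respond to handling, 6 rose and none fell, 40% against 11.6% of all genes (median log2 fold change 0.73). Their summed level was 2537 to 3086 CPM without glucose and 1807 to 2035 CPM with glucose, and the part of handling in the results was not tested.

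The ULK complex joins the kinases ULK1 or ULK2 with the scaffold RB1CC1 (also called FIP200), ATG13 and ATG101. In this step 2 of 5 members rose, or 40%, against 11.6% of all genes, and the others did not pass. RB1CC1 stood at 326, 253 and 242 CPM without glucose and at 123, 204 and 165 CPM with glucose, in replicates 1, 2 and 3. Every library without glucose was above every library with it, and replicate 1 was the highest of its group without glucose and the lowest with glucose. The log2 fold change was 0.74 ± 0.23 (SE) with an edgeR adjusted p of 0.0376. The call held when replicate 2 with glucose was left out and was lost when any other was (adjusted p from 0.0613 to 0.126).

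ATG13, the adaptor that links the kinase to RB1CC1, had 39.5, 53.3 and 45.9 CPM without glucose and 32.9, 24.9 and 25.8 CPM with glucose. The groups did not overlap, and the log2 fold change was 0.74 ± 0.21 (edgeR adjusted p = 0.0243). It did not pass when replicate 2 (0.0793) or 3 (0.0651) without glucose was left out, or replicate 2 (0.0989) or 3 (0.0927) with glucose. For ULK1, the initiating kinase, the levels were 47.6, 76.1 and 78.9 CPM without glucose and 55.5, 33.3 and 35.1 CPM with glucose. Replicate 1 overlapped between the groups, and the log2 fold change of 0.71 ± 0.26 did not pass (edgeR adjusted p = 0.0682). It did pass with no filter on low counts (edgeR adjusted p = 0.0470). It also passed when replicate 1 without glucose (0.0350) or replicate 1 with glucose (0.0196) was left out. When any other library was left out ULK1 did not pass (edgeR adjusted p up to 0.218). The related kinase gene ULK2 had a log2 fold change of 0.25 ± 0.26, and ATG101, which stabilises ATG13, one of −0.08 ± 0.20; neither passed.

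In the PI3K complex, which makes the lipid mark, 1 of 6 members rose, or 16.7%, against 11.6% of all genes. BECN1, the regulatory subunit Beclin 1, stood at 210, 194 and 129 CPM without glucose and at 103, 111 and 103 CPM with glucose. The libraries with glucose lay close together and all below those without it. The log2 fold change was 0.75 ± 0.22 with an edgeR adjusted p of 0.0287, a call that held when replicate 3 without glucose was left out and was lost when any other library was (adjusted p from 0.0550 to 0.0996).

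The other members of this step did not pass and had overlapping groups. The catalytic subunit gene PIK3C3 had a log2 fold change of 0.44 ± 0.29, and PIK3R4, its regulatory kinase-like partner (VPS15), one of −0.51 ± 0.32. ATG14 and UVRAG, which send the complex to autophagosome formation or to endosomes, had log2 fold changes of 0.09 ± 0.34 and 0.56 ± 0.28. AMBRA1, a Beclin 1 activator, had 0.15 ± 0.27. ATG14 was at 45.4, 25.9 and 28.7 CPM without glucose and 14.5, 40.2 and 38.3 CPM with glucose. As for RB1CC1, replicate 1 was the highest library without glucose and the lowest with glucose.

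Among transcripts of the proteins that read the lipid mark and feed the membrane, 2 of 7 rose, or 28.6%, against 11.6% of all genes. WIPI1 was at 72.1, 63.9 and 55.7 CPM without glucose and at 12.9, 10.8 and 7.59 CPM with glucose. No library came near the other group. Its mean was 63.9 ± 8.20 CPM without glucose and 10.4 ± 2.65 CPM with glucose (SD, n = 3 per group), and the log2 fold change was 2.63 ± 0.24 (edgeR adjusted p = 5.75e-05). This was the highest log2 fold change among the members and kept its call under all 12 alternatives, between 2.43 and 2.80.

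WDR45 (WIPI4), a WIPI relative that binds ATG2 and is mutated in a neurodegenerative disease of iron accumulation, also rose. Its level was 39.6, 43.1 and 39.0 CPM without glucose and 16.1, 11.7 and 16.4 CPM with glucose, a log2 fold change of 1.46 ± 0.21 (edgeR adjusted p = 0.000580). The closest relatives of both genes did not pass. WIPI2, which recruits ATG16L1 to the membrane, averaged 123 ± 23.6 CPM without glucose and 128 ± 27.3 CPM with glucose (SD, n = 3 each), with overlapping groups and a log2 fold change of −0.05 ± 0.23. WDR45B (WIPI3) was at 144, 154 and 239 CPM without glucose and 171, 258 and 174 CPM with glucose, also overlapping (log2 fold change −0.17 ± 0.25). The lipid transfer genes ATG2A and ATG2B and the scramblase gene ATG9A, which supplies vesicles to the growing membrane, had log2 fold changes of 0.40 ± 0.28, 0.05 ± 0.23 and −0.05 ± 0.24 and did not pass.

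The conjugation step had no member that rose and 1 of 10 that fell (10%), against 11.6% and 10.7% of all genes. It holds the enzymes that couple ATG12 to ATG5 and ATG8 proteins to phosphatidylethanolamine, and the ATG4 proteases that prepare ATG8 proteins and release them again. ATG4B was at 8.62, 8.95 and 11.4 CPM without glucose and at 20.5, 15.1 and 17.6 CPM with glucose. All libraries without glucose were lower, and the log2 fold change was −0.87 ± 0.23 (edgeR adjusted p = 0.0191). The call missed the threshold when replicate 1 (0.0592) or 2 (0.0526) without glucose was dropped, or replicate 3 with glucose (0.0536).

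ATG4A, a protease of the same family, was at 10.1, 5.43 and 7.88 CPM without glucose and 5.23, 4.61 and 3.94 CPM with glucose. Its groups did not overlap, in the opposite direction to ATG4B, but its log2 fold change of 0.77 ± 0.31 did not pass (edgeR adjusted p = 0.0908). ATG4C and ATG4D had log2 fold changes of 0.18 ± 0.34 and −0.16 ± 0.26. For the ubiquitin-like protein gene ATG12 the levels were 192, 145 and 219 CPM without glucose and 86.7, 152 and 161 CPM with glucose, which overlap (log2 fold change 0.48 ± 0.26). ATG5, ATG7 and ATG16L1, which encode the ATG12 acceptor, the activating enzyme and the membrane anchor of the ligase, were higher in every library without glucose than in any with it. Their log2 fold changes of 0.52 ± 0.23, 0.51 ± 0.27 and 0.35 ± 0.21 did not pass. The transfer enzyme genes ATG3 and ATG10 had log2 fold changes of 0.23 ± 0.25 and 0.17 ± 0.21.

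ATG8 proteins are made with a short tail after a glycine near the end, and ATG4 proteases cut behind this glycine so that the lipid can be attached to it. The end of each coding sequence, stop codon included, is shown with the codon of that glycine in capitals, because it is the substrate site of the protease whose transcript fell. The sequences are from GENCODE release 29 on GRCh38, read along the gene's strand, and the tables of these libraries hold no positions.
MAP1LC3B (chr16:87403059-87403097, plus strand): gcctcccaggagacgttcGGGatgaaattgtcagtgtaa
MAP1LC3A (chr20:34559872-34559898, plus strand): gcctcccaggaaaccttcGGCttctga
GABARAPL1 (chr12:10221826-10221852, plus strand): agtgatgagagtgtctatGGGaaatga
GABARAP (chr17:7240854-7240880, minus strand): agtgacgaaagtgtctacGGTctgtga
GABARAPL2 (chr16:75577343-75577369, plus strand): agcggagagaacacttttGGCttctga
All these stretches lie within 1 exon. MAP1LC3B codes for 5 residues behind the glycine and each of the others for 1.

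Of the 5 ATG8 genes, 2 rose, or 40%, against 11.6% of all genes: 1 of the LC3 group and 1 of the GABARAP group. MAP1LC3B, whose protein LC3B is the usual marker of autophagosomes, stood at 158, 197 and 205 CPM without glucose and 66.5, 65.2 and 71.2 CPM with glucose. The mean was 187 ± 24.9 CPM without glucose and 67.6 ± 3.14 CPM with glucose (SD, n = 3 each). The groups were far apart, with a log2 fold change of 1.47 ± 0.20 (edgeR adjusted p = 0.000422). GABARAPL1, known to be induced in starved cells, had 17.6, 26.1 and 21.5 CPM without glucose and 7.34, 7.87 and 7.52 CPM with glucose. The libraries with glucose lay close together, and the log2 fold change was 1.52 ± 0.23 (edgeR adjusted p = 0.000863). Both calls held under all 12 alternatives.

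GABARAP was at 288, 299 and 294 CPM without glucose and 265, 225 and 248 CPM with glucose, so that the groups did not overlap, but the log2 fold change of 0.25 ± 0.19 did not pass (edgeR adjusted p = 0.347). GABARAPL2 (GATE-16) overlapped between the groups, with a log2 fold change of −0.17 ± 0.20. MAP1LC3A was at 8.34, 18.9 and 13.0 CPM without glucose and 5.65, 9.12 and 5.91 CPM with glucose. Its log2 fold change of 0.96 ± 0.32 missed the threshold (edgeR adjusted p = 0.0510). It passed by DESeq2 (adjusted p = 0.0476) and with no filter on low counts (edgeR, 0.0324). It also passed when replicate 1 without glucose (edgeR, 0.0222) or replicate 2 with glucose (edgeR, 0.0466) was dropped. When any other library was dropped MAP1LC3A did not pass (edgeR adjusted p up to 0.222). MAP1LC3B2, a near-identical copy of MAP1LC3B, was detected at 1.71, 5.12 and 2.21 CPM without glucose and 0.565, 1.06 and 1.05 CPM with glucose. Reads that aligned to more than 1 place are not in the gene counts, so the values of both copies are uncertain.

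**Figure D2:**
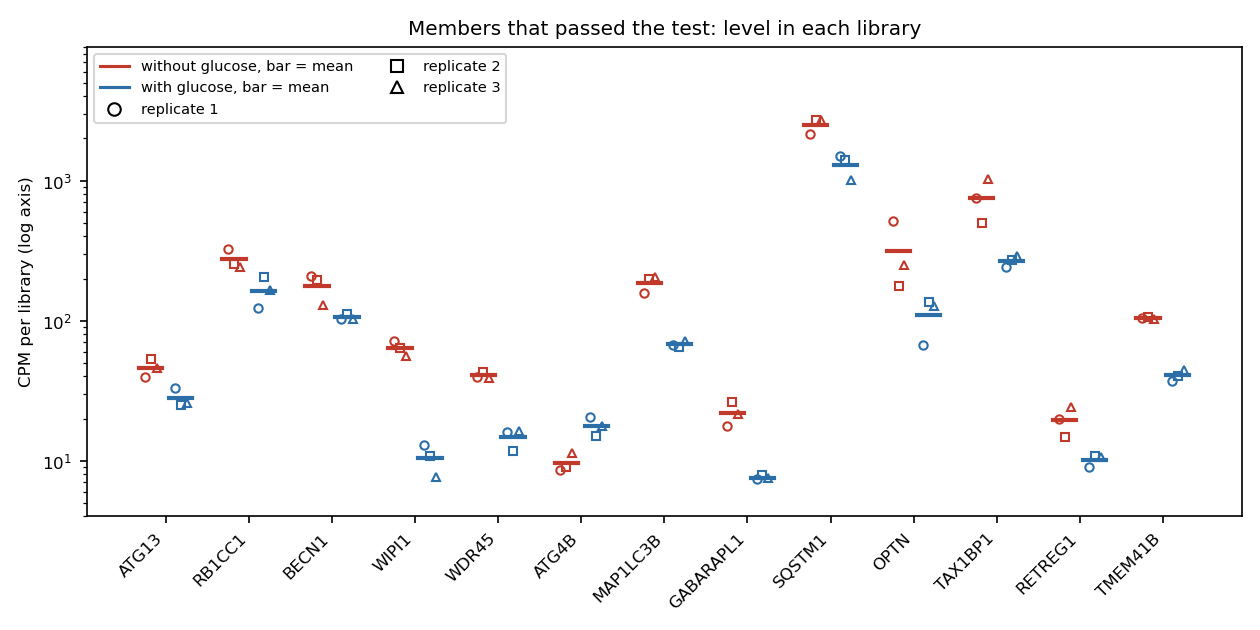
Level in CPM (log axis) of the 13 members that passed, in each library, without glucose in red on the left and with glucose in blue on the right, with replicates as symbols and the group mean as a bar. For 12 members all red points lie above the blue ones; for ATG4B, at 8.62 to 11.4 without glucose and 15.1 to 20.5 CPM with glucose, they lie below.

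Of the cargo receptor genes 4 of 7 rose, or 57.1%, against 11.6% of all genes. Many receptors carry a short LC3-interacting core, in which an aromatic residue comes first and a leucine, isoleucine or valine last, and which docks on ATG8 proteins. The coding stretch around it is shown for the 5 receptors in which such a core was looked up, which leaves out CALCOCO2 and TAX1BP1, with the 4 codons of the core in capitals, since it is the part through which the receptors and the ATG8 proteins above meet. The sequences are again from GENCODE release 29 on GRCh38, along the gene's strand, each within 1 exon.
SQSTM1 (chr5:179833620-179833649, plus strand): gatgatgacTGGACCCATCTGtcttcaaaa
OPTN (chr10:13112606-13112635, plus strand): gaagattccTTTGTTGAAATTaggatggct
RETREG1 (chr5:16474852-16474881, minus strand): ggtgatgacTTTGAACTACTTgaccagtca
NBR1 (chr17:43200325-43200354, plus strand): tcagaggatTACATCATCATCctgcctgag
TEX264 (chr3:51703882-51703911, plus strand): ggctcctctTTTGAGGAGCTGgacttggag
The core opens with tryptophan in SQSTM1, tyrosine in NBR1 and phenylalanine in OPTN, RETREG1 and TEX264. SQSTM1, OPTN and RETREG1 rose, whereas NBR1 and TEX264 did not pass.

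SQSTM1 encodes p62, the receptor of ubiquitinated cargo, which is itself degraded with it. It stood at 2146, 2695 and 2701 CPM without glucose and at 1488, 1396 and 1018 CPM with glucose. The groups did not overlap, and the log2 fold change was 0.95 ± 0.21 (edgeR adjusted p = 0.00644). TAX1BP1, a ubiquitin-binding receptor related to CALCOCO2, was at 750, 502 and 1019 CPM without glucose and 240, 273 and 289 CPM with glucose. Its libraries without glucose varied more than those with glucose but were all higher, with a log2 fold change of 1.50 ± 0.25 (edgeR adjusted p = 0.00151). Both calls held under all 12 alternatives.

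OPTN, optineurin, a receptor for bacteria and damaged mitochondria, was at 519, 176 and 250 CPM without glucose and 67.4, 136 and 127 CPM with glucose. Replicate 1 was the highest library without glucose and the lowest with glucose, and the groups did not overlap. The log2 fold change was 1.51 ± 0.37 (edgeR adjusted p = 0.0126); with replicate 1 without glucose left out it was 0.95 and did not pass (adjusted p = 0.0547). CALCOCO2 (NDP52), a receptor for similar cargo, was at 343, 146 and 167 CPM without glucose and 58.0, 152 and 170 CPM with glucose. Again replicate 1 held the extreme value in each group, and replicates 2 and 3 overlapped. Its log2 fold change of 0.79 ± 0.39 did not pass, and was 0.30 with replicate 1 without glucose left out and 0.44 with replicate 1 with glucose left out.

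RETREG1 (FAM134B), a receptor that sheds sheets of endoplasmic reticulum into autophagosomes, was at 19.9, 14.7 and 24.2 CPM without glucose and 9.04, 10.8 and 10.7 CPM with glucose. All libraries without glucose were higher, with a log2 fold change of 0.94 ± 0.24 (edgeR adjusted p = 0.0157), but the call was lost when replicate 3 without glucose was left out (adjusted p = 0.0830). TEX264, another receptor of the endoplasmic reticulum, overlapped between the groups and had a log2 fold change of −0.28 ± 0.27. NBR1, which acts beside SQSTM1, was at 81.2, 78.9 and 79.1 CPM without glucose and 41.1, 58.0 and 65.3 CPM with glucose. Its groups did not overlap, but the log2 fold change of 0.54 ± 0.21 did not pass (edgeR adjusted p = 0.0890).

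The last step holds the SNARE STX17 and the tether EPG5, which act in fusion with the lysosome, and the lipid scramblases VMP1 and TMEM41B of the endoplasmic reticulum, which act earlier, in membrane supply. TMEM41B rose in this step, 1 of 4 members or 25%, against 11.6% of all genes. It stood at 105, 106 and 103 CPM without glucose and at 37.1, 40.2 and 44.5 CPM with glucose. The libraries of each group lay close together and far from the other group, with a log2 fold change of 1.36 ± 0.19 (edgeR adjusted p = 0.000522) that held under all 12 alternatives. VMP1, which works with TMEM41B, was at 410, 434 and 367 CPM without glucose and 370, 338 and 288 CPM with glucose. These levels just overlap, and the log2 fold change of 0.28 ± 0.19 did not pass. EPG5 was higher in every library without glucose (log2 fold change 0.56 ± 0.25, edgeR adjusted p = 0.126) and STX17 overlapped between the groups (0.27 ± 0.23).

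Related members were compared by the log2 ratio of their counts within each library (0.5 counts added to both), which does not depend on library scaling. Of 10 pairs set by family, 6 had ratios that did not overlap between the groups. Each of the 6 sets a member that passed against a relative that did not. The ratios use the same counts as those calls, so they are no separate support. The share among other pairs of genes was not counted. With 3 libraries against 3 the exact two-sided permutation test cannot go below p = 0.10, and each of these 6 pairs reached it (adjusted p = 0.167 over the 10 pairs), so none passed.

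The log2 ratio of WIPI1 to WIPI2 was −0.49, −1.21 and −1.11 without glucose and −3.61, −3.49 and −3.77 with glucose, a difference of 2.68. For WDR45 to WDR45B the difference was 1.65. Both WIPI relatives thus gained on their partner in all 3 libraries without glucose. Within the ATG8 family GABARAPL1 gained 1.24 on GABARAP and 1.67 on GABARAPL2, and MAP1LC3B gained 1.63 on GABARAPL2. The ratio of MAP1LC3B to MAP1LC3A overlapped between the groups, with means of 3.87 ± 0.44 without glucose and 3.32 ± 0.42 with glucose (SD, n = 3 each; exact permutation p = 0.3).

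ATG4A to ATG4B was at 0.23, −0.72 and −0.53 without glucose and −1.96, −1.70 and −2.15 with glucose, a difference of 1.60. ULK1 to ULK2 (difference 0.52), ATG2A to ATG2B (0.34) and SQSTM1 to NBR1 (0.39) overlapped between the groups, with exact permutation p-values of 0.3, 0.4 and 0.4.

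**Figure D3:**
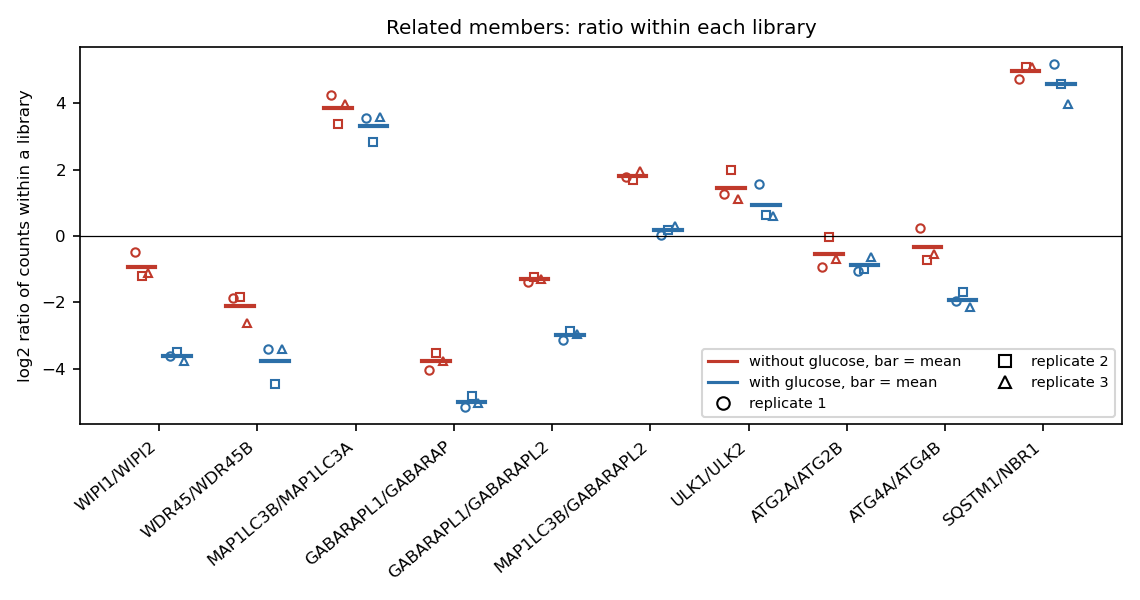
Log2 ratio of the counts of related members within each library, without glucose in red on the left and with glucose in blue on the right, with replicates as symbols and means as bars. The ratio of WIPI1 to WIPI2 differs by 2.68 between the groups, and the groups overlap for MAP1LC3B/MAP1LC3A, ULK1/ULK2, ATG2A/ATG2B and SQSTM1/NBR1.

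A further 54 autophagy genes outside the core were listed by role, and 48 of them were tested. Of these 7 rose and 1 fell, 14.6% and 2.08%, against 11.6% and 10.7% of all genes. Their median log2 fold change was 0.11. CCPG1, a receptor that sends endoplasmic reticulum to autophagy, was at 1585, 1324 and 1614 CPM without glucose and 130, 209 and 278 CPM with glucose. All libraries without glucose were far above those with it (log2 fold change 2.87 ± 0.27, edgeR adjusted p = 6.3e-05). PIK3C2A, a lipid kinase of endosomes, had 77.5, 64.6 and 76.9 CPM without glucose and 22.5, 36.2 and 39.5 CPM with glucose (log2 fold change 1.15 ± 0.24, edgeR adjusted p = 0.00467). FOXO3, a transcription factor of autophagy genes, had 52.4, 46.0 and 58.6 CPM without glucose and 24.6, 28.3 and 29.3 CPM with glucose (log2 fold change 0.93 ± 0.20, edgeR adjusted p = 0.00547). Neither overlapped between the groups. These 3 calls held under all 12 alternatives.

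SEC62, a translocon protein that also acts as a receptor for endoplasmic reticulum, was at 907, 530 and 793 CPM without glucose and 346, 389 and 466 CPM with glucose, without overlap (log2 fold change 0.89 ± 0.23, edgeR adjusted p = 0.0165). By edgeR it did not pass when replicate 1 (adjusted p = 0.0649) or 3 (0.0640) without glucose or replicate 2 with glucose (0.0651) was left out. VPS18, a core subunit of the HOPS tethering complex, was at 8.15, 12.1 and 12.1 CPM without glucose and 15.4, 19.1 and 18.8 CPM with glucose. It was lower in every library without glucose and fell with a log2 fold change of −0.72 ± 0.24 (edgeR adjusted p = 0.0469). It passed when replicate 1 with glucose was left out and missed the threshold when any other library was left out (edgeR adjusted p from 0.0613 to 0.138). The others that rose, WDR41, STX7 and MAP1LC3B2, are named after their values were seen and had adjusted p-values of 0.0192, 0.0341 and 0.0431 by edgeR; each missed the threshold when replicate 2 or 3 with glucose was left out, and when at least 1 library without glucose was. The number that rose was 4 with replicate 3 without glucose left out, and 3 and 4 with replicates 2 and 3 with glucose left out.

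By role, 2 of 12 tested initiation regulators, 1 of 4 relatives of ATG9, ATG16 and ATG8, 2 of 10 further receptors, 1 of 16 fusion genes and 1 of 6 transcription factor genes rose. In the same order these shares are 16.7%, 25%, 20%, 6.25% and 16.7%, against 11.6% of all genes. Of the 16 fusion genes 1 also fell, 6.25% against 10.7% of all genes. Their median log2 fold change was −0.06, with 6 above 0 and 10 below. For 5 of them, 31.25%, every library without glucose was lower than any with it, against 19.4% of all genes. The reverse held for 3, or 18.75%, against 21.0%. The factors TFEB, TFE3 and MITF, which drive lysosome and autophagy genes, did not pass. TFEB had only 93 counts over the 6 libraries, TFE3 had a log2 fold change of 0.09 ± 0.20 and MITF, lower in every library without glucose than in any with it, one of −0.50 ± 0.19 (edgeR adjusted p = 0.0721). ATG9B and VAMP7 had no count in any library, and MAP1LC3C, STBD1, DEPP1 and FOXO4 had too few for the test.

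Promoter sequences from RefSeq on GRCh38.p14, 250 bases before to 50 after the start, were found for 37 of the 44 members, with 47 starts. They were searched on both strands for motifs of factors linked to autophagy or to stress. The C/EBP-ATF composite TGATGCAA, in 0.866% of all 35116 promoters of the table, the unfolded protein response core TGACGTGG, in 0.729%, and the endoplasmic reticulum stress element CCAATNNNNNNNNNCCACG, in 0.0769%, were in none of the 47. The palindrome TCACGTGA of the CLEAR element, in 0.980% of all promoters, was in ATG3. Its core CACGTG, which lies within that palindrome, is in 7.26% of all promoters and was in those of ATG3 and ATG14. ATG3 also held the core outside the palindrome, from 18 bases before the start. No member that rose and had a promoter in the table held the palindrome or its core. The FOXO motif GTAAACA, in 3.42% of all promoters, was in CALCOCO2 and in WDR45, so WDR45 held a match among the 11 members that rose and had a promoter in the table (RB1CC1 had none). The matches of the longer motifs are shown with the motif in capitals, along the gene's strand.
ATG3, TCACGTGA from 4 bases after the start (chr3:112561940-112561969, minus strand): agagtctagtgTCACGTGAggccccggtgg
WDR45, GTAAACA from 2 bases before the start (chrX:49079872-49079900, minus strand): tagggcctgatGTAAACAcccgagccggg
CALCOCO2, GTAAACA from 226 bases before the start (chr17:48830798-48830826, plus strand): aaaaaagaaaaGTAAACAgcttcttccag
A match is a description of these letters and not of binding.

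**Figure D4:**
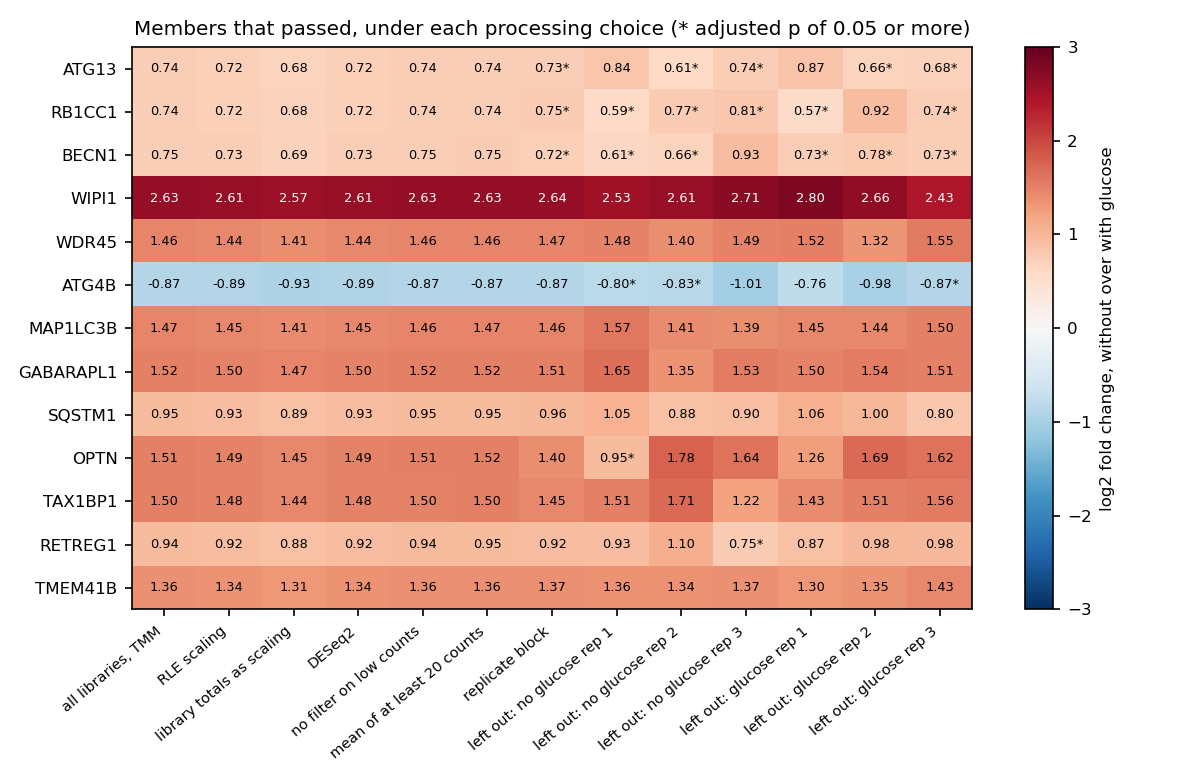
Log2 fold change, without over with glucose, of the 13 members that passed (listed downwards) with all libraries and under each of the 12 alternatives (from left to right), with red above 0, blue below 0 and a star where the adjusted p was 0.05 or more. WIPI1, WDR45, MAP1LC3B, GABARAPL1, SQSTM1, TAX1BP1 and TMEM41B carry no star, and the other 6 members carry at least 1.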

How the data were processed

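Raw read counts for each Entrez gene in 6 libraries were deposited; the authors made them with STAR and HTSeq on build hg19, per the submitters' processing notes; versions, annotation and strand setting were not given in the sources used here. Per the labels' protocols, libraries were primed with barcoded oligo-dT, pooled by Actb signal and amplified by PCR, with no molecular identifiers mentioned, so counting error alone understates the error. Of 19240 genes, 19178 were named through the RefSeq gene table of GRCh38.p14. The 5 HTSeq summary lines, holding 55.3% to 56.9% of the reads, stayed out of library sizes and tests.

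Groups were compared with edgeR 4.0.16 (R 4.3.3; glmQLFit and glmQLFTest, TMM, filterByExpr at a minimum count of 10, no covariate, two-sided, Benjamini-Hochberg over 11886 genes). SE was taken as the log2 fold change over the root of F. The code was tested on simulated data. Libraries of a group differed by more than sampling noise (chi-square over degrees of freedom 22.1 to 57.3). Alternatives were DESeq2 1.42.0, other scalings and filters, a replicate block, and leaving out each library. The members and lists were chosen with earlier results of these data known. Values per library are given for members that passed and for the member with the highest mean CPM in each step, and for some others chosen after their values were seen; of the other autophagy genes past the threshold, those with the 4 smallest p in each direction are named by rule (only 1 fell). The motif CACGTG was added to the promoter search after the other motifs had been set.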

Additional observations from a re-analysis of the deposited data

How the results depend on the processing

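Of the 13 members that passed, 7 kept their call under all 12 alternatives (WIPI1, WDR45, MAP1LC3B, GABARAPL1, SQSTM1, TAX1BP1 and TMEM41B). Over all 44 members and 12 alternatives, 480 of 528 values kept their direction and their side of the threshold, 22 lost the call, 8 gained one and 18 changed sign. With RLE scaling in edgeR 12 members rose and 1 fell, and with library totals 12 and 1. The numbers were 13 and 1 with DESeq2 and 14 and 1 with no filter on low counts. With a minimum mean of 20 counts they were 12 and 1.

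The labels do not say what the replicate numbers share, and deviations of same-numbered libraries correlated at −0.27, −0.12 and 0.04; only number 3 correlated best with its own number. With a replicate block 10 members rose and 1 fell (ATG13, RB1CC1 and BECN1 no longer passed, MAP1LC3A did), 5 of the other autophagy genes rose and 0 fell, and 984 of all genes rose and 911 fell, against 1376 and 1276. DESeq2 had 2 of the other autophagy genes falling.

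With 1 library left out, 9 to 11 members rose and 0 to 1 fell, 3 to 8 other autophagy genes rose and 0 to 2 fell, and 858 to 1292 of all genes rose and 781 to 1232 fell. The members' median log2 fold change was 0.37 to 0.52, and 0.40 with library totals as scaling, where the median of all genes was −0.04. Of the log2 ratios of related pairs, none changed sign with 2 counts added in place of 0.5 or with a library left out.

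Members whose log2 fold change changed sign with a library left out all failed the test throughout. Their ranges were −0.0045 to 0.39 for AMBRA1, −0.20 to 0.017 for ATG101, −0.24 to 0.31 for ATG14, −0.012 to 0.16 for ATG2B, −0.29 to 0.50 for ATG4C, −0.26 to 0.057 for ATG9A, −0.51 to 0.10 for TEX264, −0.12 to 0.39 for ULK2, −0.44 to 0.052 for WDR45B and −0.22 to 0.12 for WIPI2. ATG2B was also −0.0095 with library totals. The cause of these changes was not tested. The SE did not simply follow depth: it was 0.31 for ATG4A, with 426 counts over 6 libraries, and 0.39 for CALCOCO2, with 12217.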
